A study of Mus musculus with 21 samples.

Results

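The genes described here are the mouse replication-dependent histone genes, which encode the core histones H2A, H2B, H3 and H4 and the linker histone H1 that package newly copied DNA. They were taken as every protein-coding gene of the Hist1 to Hist4 symbol series in the GENCODE M21 annotation with at least 10 counts over all libraries together. The rule found 59 genes of 54446 gene IDs: 5 for H1, 15 for H2A, 16 for H2B, 10 for H3 and 13 for H4. By cluster, 51 lie in Hist1 on chromosome 13, 5 in Hist2 on chromosome 3, 2 in Hist3 on chromosome 11 and 1 in Hist4 on chromosome 6. Another 8 genes of the symbol series fell below the minimum, with 5 counts each for Hist1h1t and Hist1h2aa, 1 for Hist1h2ba, and 0 for Hist2h2aa1, Hist2h2aa2, Hist2h2bb, Hist2h3c1 and Hist2h3b. Levels are given in CPM, the read count of a gene relative to the library total after TMM scaling. Of the 59, 55 passed the filter on low counts and were tested, and Hist2h3c2, Hist1h2ao, Hist1h2br and Hist1h2bq, with 77, 54, 36 and 19 counts over the 21 libraries, were not.

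The cells came from the bone marrow of C57BL/6 mice aged 12 weeks of 2 genotypes, Phf6 wild type (WT) and Phf6 knockout (KO). Phf6 encodes a nuclear protein with plant homeodomain fingers. Long-term haematopoietic stem cells (LT-HSC) and the multipotent progenitor populations MPP2 and MPP3 were sorted by lineage markers, cKit, Sca-1, CD48 and CD150, at 100 to 200 cells a library. There were 2 WT and 3 KO libraries of LT-HSC, and 4 WT and 4 KO libraries of MPP2 and of MPP3. No treatment is named, and the sources used here do not give the knockout allele, or the Cre line and its promoter if any. Libraries are called by group and number. The number is taken to mark the mouse, which is inferred, as the titles name no mouse. The title of KO LT-HSC 3 runs on from those of KO MPP3 4 and KO MPP2 4. It may therefore share their mouse and not that of number 3.

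Replication-dependent histone genes lie in clusters, lack introns, and are transcribed mainly while DNA is copied. Their mRNAs normally end a few bases after a conserved stem-loop in place of a poly(A) tail, and the stem-loop binding protein Slbp holds that end for processing, export, translation and decay at the end of S phase. Some of the genes also give longer, polyadenylated transcripts, in particular in cells that have stopped dividing. In bone marrow, stem cells are mostly quiescent, and progenitors enter the cell cycle more often.

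The stem-loop is shown first because it divides the genes by how far their annotated model runs past it. The pattern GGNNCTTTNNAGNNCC, read on the transcript strand, was found in the gene models of 40 of the 59 genes, and in 135 of 21901 protein-coding genes (0.616%). The windows below hold the 16 bases of the stem-loop in capitals, with up to 5 bases on either side, as DNA of the transcript strand 5′ to 3′ in GENCODE M21.

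Hist1h2bm: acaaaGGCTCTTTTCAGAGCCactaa
Hist1h1e: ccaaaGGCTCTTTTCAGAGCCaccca
Hist1h2ae: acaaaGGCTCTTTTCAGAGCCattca
Hist1h2ac: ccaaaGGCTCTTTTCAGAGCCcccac
Hist1h3c: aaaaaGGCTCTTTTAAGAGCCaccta
Hist1h3e: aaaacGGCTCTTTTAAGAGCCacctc
Hist1h4m: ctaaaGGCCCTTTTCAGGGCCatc
Hist1h4h: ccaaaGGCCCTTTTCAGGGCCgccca
Hist1h4d: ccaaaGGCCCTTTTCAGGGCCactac
Hist1h4j: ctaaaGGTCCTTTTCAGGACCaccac

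Every one of these has a stem of 6 bases and a loop of 4. The form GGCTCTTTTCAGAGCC was the commonest, in 23 genes of the H1, H2A, H2B and H3 classes, and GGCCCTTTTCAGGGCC the commonest among H4 genes, in 7. In 20 genes the model stops 3 to 74 bases past the stem-loop, as for Hist1h4m (3), Hist1h2bm (46), Hist1h4h (46) and Hist1h3c (74). These are called short models. In 20 others, called long models, it runs 151 to 4884 bases on, as for Hist1h2ae (151), Hist1h3e (369), Hist1h4d (770), Hist1h1e (1153) and Hist1h2ac (2010). The remaining 19 models held no match: 8 of them end at the stop codon, and no match says only that these letters are not in the model. The division uses the annotation alone and no measured value.

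Hist1h2bm (chr13:21722044-21722567, plus strand, mm10) and Hist1h2ae (chr13:23570517-23571220, minus strand) both lie in the large Hist1 cluster, and the results below turn on them. Their promoters, from 250 bases before to 50 after the RefSeq start (GRCm38.p6), are given as a description of sequence. Both genes were higher in MPP2 than in LT-HSC in each genotype. Capitals mark the TATA box core TATAAA on either strand, the NF-Y letters CCAAT on either strand, and the octamer ATTTGCAT on either strand.

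Hist1h2bm (chr13:21721794-21722093, plus strand): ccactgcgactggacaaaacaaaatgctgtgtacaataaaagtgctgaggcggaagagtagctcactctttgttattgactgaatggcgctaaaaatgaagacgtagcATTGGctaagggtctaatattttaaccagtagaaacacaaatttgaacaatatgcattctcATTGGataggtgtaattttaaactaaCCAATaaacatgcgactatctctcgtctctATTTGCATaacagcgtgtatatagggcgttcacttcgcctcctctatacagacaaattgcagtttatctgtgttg
Hist1h2ae (chr13:23571171-23571470, minus strand): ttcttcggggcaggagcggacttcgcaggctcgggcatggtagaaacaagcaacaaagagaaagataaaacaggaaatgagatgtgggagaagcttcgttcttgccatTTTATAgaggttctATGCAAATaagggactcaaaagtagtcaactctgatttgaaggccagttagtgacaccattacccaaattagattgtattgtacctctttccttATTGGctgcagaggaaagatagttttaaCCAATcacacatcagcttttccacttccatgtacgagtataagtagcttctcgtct

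The Hist1h2ae window also holds the start of Hist1h2bg, an H2B gene read in the opposite direction from a start 176 bases away. Promoters of 53 members were matched in the RefSeq table. CCAAT, the letters bound by the NF-Y complex, occurred in 44 of the 53 (83.0%) and in 37.4% of all 32851 promoters of that length, and only 3 of the 12 H4 promoters held it. TATAAA occurred in 31 (58.5%) against 13.6% of all promoters. The octamer, bound by POU factors such as Oct-1 (Pou2f1), occurred in 10 (18.9%) against 1.74%, in 6 of 15 H2A and 4 of 14 H2B promoters. Paired H2A and H2B genes share promoter sequence, so these matches are not independent, and a match is a description of letters and not of binding.

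Phf6 itself was at 177 and 124 CPM in WT LT-HSC and 5.75, 10.01 and 13.2 in KO LT-HSC. In MPP2 it was at 209.7, 154, 61.1 and 126 CPM in WT and 12.3, 11.7, 11.3 and 11.9 in KO. In MPP3 it was at 191, 143, 54.4 and 135 CPM in WT and 8.12, 2.45, 12.1 and 13.3 in KO. Every KO library was below every WT library of its population. Library totals ran from 18892723 to 31611366 counts (median 26158938), and 3 counts in a library correspond to 0.0985 to 0.194 CPM. Slamf1 (CD150) was at 0 to 1.99 CPM in MPP3 and at 9.18 to 80.1 in LT-HSC and MPP2, and Cd48 was at 5.57 to 19.1 CPM in LT-HSC and 165 to 670.1 in the progenitors, the pattern the gates select for. KO MPP3 2 stood apart: rRNA took 10.28% and mitochondrial rRNA 10.95% of its counts, against 0.139 to 0.596% and 0.534 to 2.196% in the other libraries. Its summed level of 7 LT-HSC markers was 783.3 CPM against 200.0 to 409.1 in the other MPP3 libraries, and that of 7 MPP3 markers was 701.2 CPM against 1438 to 5537. The MPP2 libraries were uneven in markers. The MPP3 markers summed to 4775, 2242, 845.2 and 491 CPM in WT MPP2 and 4169, 4063, 2652 and 310.4 in KO MPP2. Markers of MPP2 summed to 834.2, 650.9, 1722 and 2387 CPM in WT MPP2 and 820.8, 1003, 2354 and 2565 in KO MPP2. The part of this spread in the histone values was not tested. Immunoglobulin genes took 45.8% of the counts of KO MPP2 1 and 25.8% of those of KO MPP3 1, at most 4.08% elsewhere, and the 8 neutrophil markers summed to 4491 CPM in WT LT-HSC 2 against 6.8 to 58 in the other LT-HSC libraries. For several results that rest on KO MPP3 2, KO MPP2 1 or KO MPP3 1, values are also given without 1 of them or without these 3 libraries, which stand apart.

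All 59 genes together took 0.0327% to 0.1107% of a library's counts. Averaged over the 21 libraries, H4 genes made up 28.1% ± 4.5 (SD), H2B genes 25.9% ± 6.1, H2A genes 23.0% ± 4.9, H1 genes 18.2% ± 2.2 and H3 genes 4.80% ± 0.89 of the summed histone CPM. A few genes dominated: the 5 of highest mean CPM held 49.2% ± 6.8 of the sum. These were Hist1h4d (82.9 CPM), Hist1h2ae (82.5), Hist1h2bc (65.6), Hist1h1c (36.8) and Hist1h1e (29.9). Per kilobase of exon, the scale on which genes of different length can be set side by side, the order was Hist1h2ae (117 CPM per kb), Hist1h4d (72.8), Hist1h2bc (56.7), Hist1h4i (36.99) and Hist1h1b (32.98). Long models held 62.2% ± 5.2 of the summed CPM, short models 14.7% ± 4.2 and models with no match 23.2% ± 4.8. Coding sequences are identical within 3 pairs, Hist1h2ao and Hist1h2ap, Hist1h2bq and Hist1h2br, and Hist1h4m and Hist1h4n, and 18 members overlap an exon of another gene, 16 of them on the opposite strand. The rule by which reads of copies or of overlapping exons were assigned is not given in the sources used here, and levels of single genes in these pairs are uncertain.

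**Figure D1:**
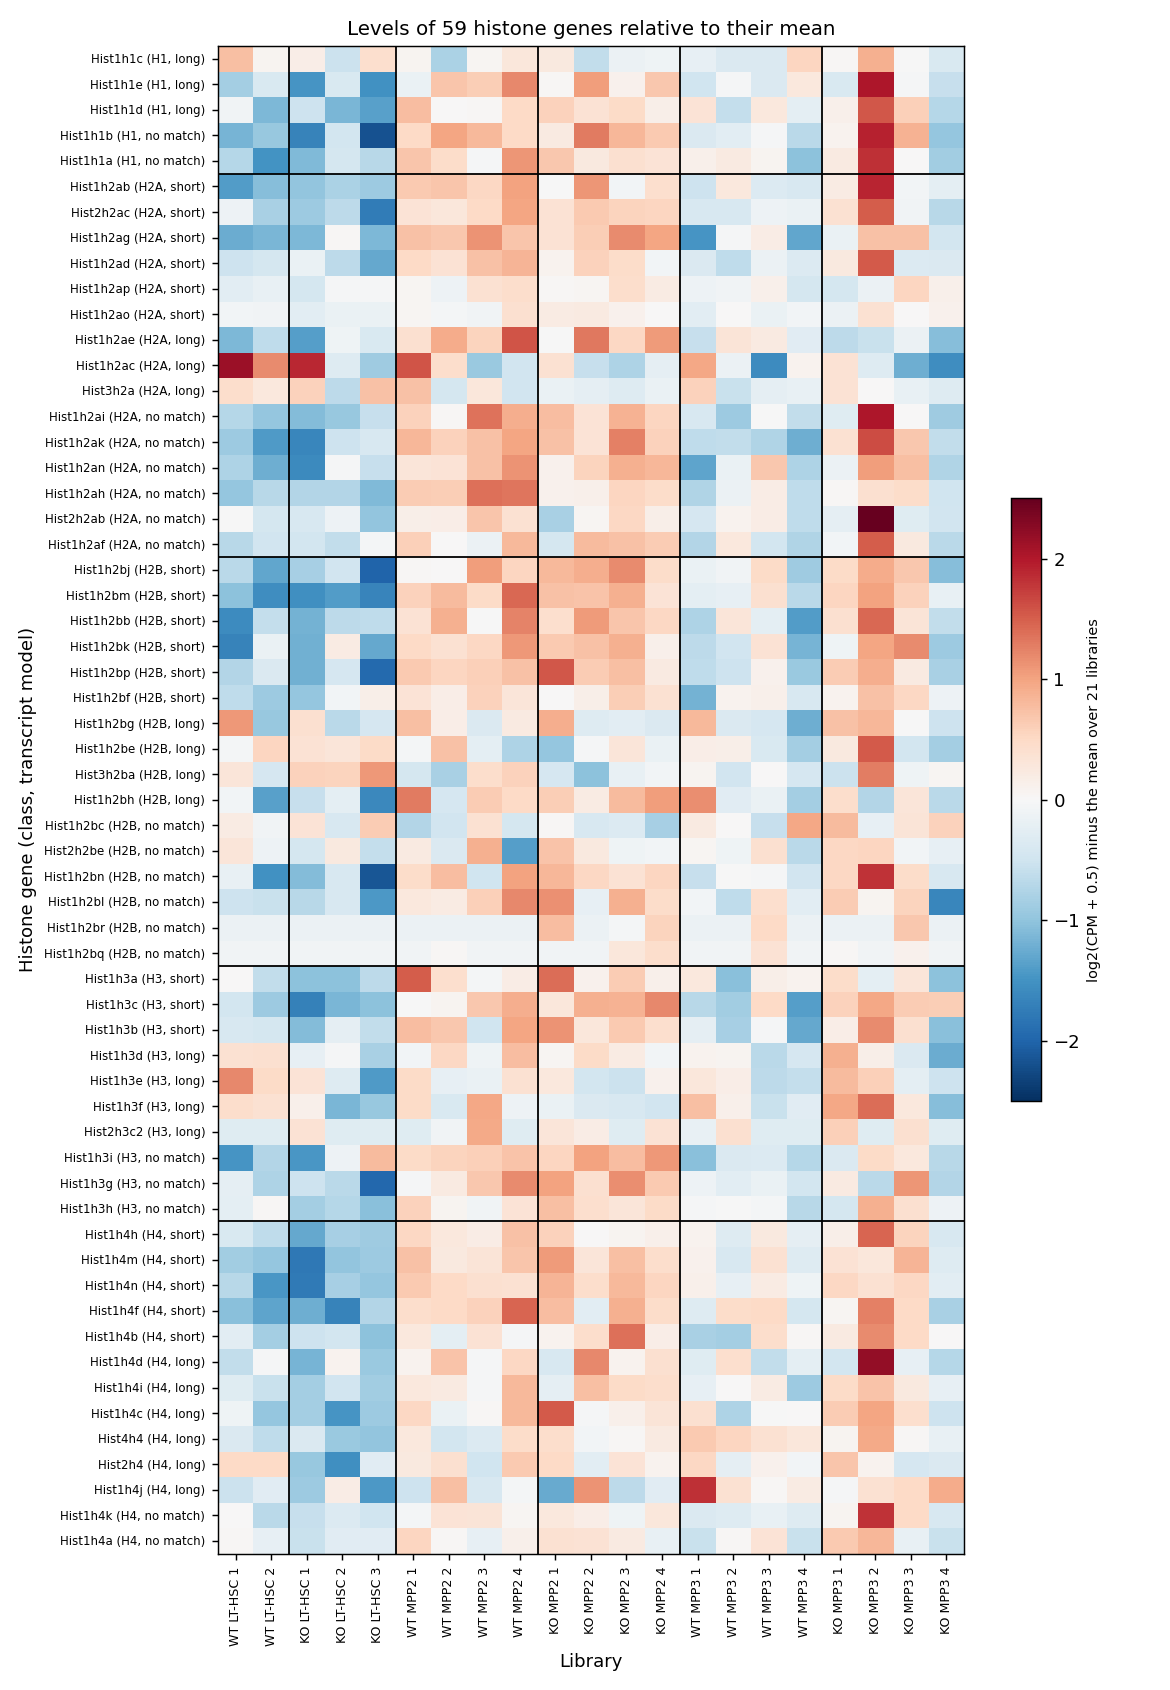
Level of each of the 59 histone genes in each of the 21 libraries, as log2(CPM + 0.5) minus the gene's mean over the libraries, with genes grouped by class. The LT-HSC columns are mostly below and the MPP2 columns mostly above the mean, while KO MPP3 2 has the highest value of the 21 in 25 genes.

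Histone mRNA was higher in MPP2 than in LT-HSC in both genotypes, and the difference came from part of the genes. The sum over all members was 502 and 426 CPM in WT LT-HSC and 672, 701, 673 and 889 CPM in WT MPP2. In KO libraries it was 389, 411 and 400.3 CPM in LT-HSC and 667, 839, 665 and 692 CPM in MPP2. The MPP2 libraries were all above the LT-HSC libraries of their genotype in this sum, and the group means differed 1.58-fold in WT and 1.79-fold in KO. Among the classes, the H2B sums of LT-HSC and MPP2 overlapped in both genotypes, and their ratio of means in KO, 0.26 on the log2 scale, was -0.09 with library totals alone as the scaling. In bulk samples, fewer cells of a type and less RNA per cell cannot be told apart.

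**Figure D2:**
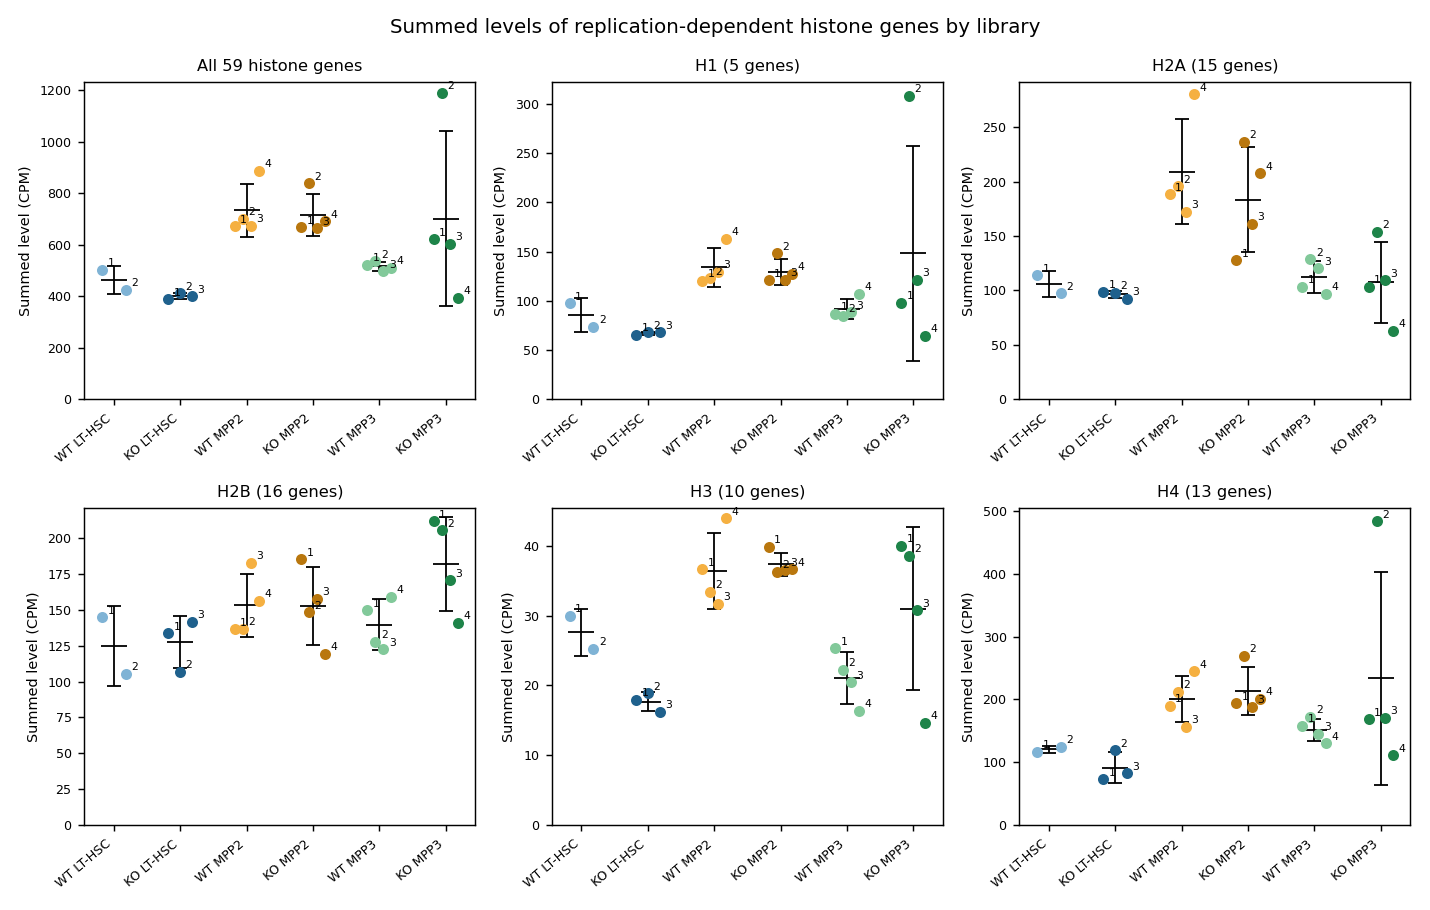
Summed CPM of the histone genes of each class by group, with 1 point per library (the figure on a point is its number) and bars for the mean ± SD. MPP2 sums lie above LT-HSC sums of the same genotype for all members together, and the KO MPP3 2 point stands far above the other MPP3 points in the H4 and H1 classes.

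The change in each gene was read from edgeR's quasi-likelihood test, fitted on all 21 libraries and 21100 genes with Benjamini-Hochberg adjustment, with a gene called at an adjusted p under 0.05. In WT, 1 of 55 members was called higher in MPP2 than in LT-HSC and 0 lower, against 0.365% of all genes called higher. In KO, 6 of 55 were called higher and 0 lower, against 0.758% of all genes. By DESeq2 12 members were called in WT and 22 in KO, all higher, against 3.97% and 5.9% of all genes called in either direction. Counting genes whose libraries do not overlap, 33 of 55 members (60%) were higher in every WT MPP2 library than in both WT LT-HSC libraries, against 11.6% of all genes tested, and 37 (67.3%) in KO against 6.59%. One member was lower in every library in each genotype, Hist1h3e in WT (against 15.3% of all genes) and Hist3h2ba in KO (against 7.62%).

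Hist1h2bm, an H2B gene with a short model, was called in both genotypes. It was at 3.97 and 2.58 CPM in WT LT-HSC and 13.1, 15.1, 12.1 and 24.1 in WT MPP2. In KO it was at 2.62, 2.91 and 2.37 CPM in LT-HSC and 14.6, 14.3, 16.4 and 11.02 in MPP2. The groups do not overlap in either genotype. The log2 fold change by edgeR was 2.29 ± 0.44 (SE; adjusted p = 0.0261) in WT and 2.41 ± 0.37 (SE; adjusted p = 0.00198) in KO. In KO it was called under each of 17 alternatives, and in WT under 6 of 14, with an adjusted p of 6.29e-06 to 0.473.

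The other 5 genes called in KO were an H1, an H3 and 3 H4 genes, all in the Hist1 cluster: Hist1h1b (chr13:21779883-21780625), Hist1h3c (chr13:23744973-23745602), Hist1h4m (chr13:21811746-21812147), Hist1h4n (chr13:21831767-21832196) and Hist1h4c (chr13:23697635-23698454). Hist1h1b, the linker histone H1.5, was at 5.82, 13.99 and 3.94 CPM in KO LT-HSC and 22.98, 48.95, 34.95 and 31.2 in KO MPP2, a log2 fold change of 2.12 ± 0.53 (SE; adjusted p = 0.0464) by edgeR. Hist1h3c, an H3 gene, was at 0.287, 0.651 and 0.734 CPM in KO LT-HSC and 2.58, 4.21, 4.12 and 5.28 in KO MPP2, a log2 fold change of 2.85 ± 0.67 (SE; adjusted p = 0.032) by edgeR. Both genes were higher in all 4 KO MPP2 libraries than in all 3 KO LT-HSC libraries. Hist1h4m and Hist1h4n, the H4 pair of identical coding sequence, rose by 2.02 and 2.01 on the log2 scale (edgeR adjusted p = 0.0103 and 0.0104). Hist1h4c, another H4 gene, was at 8.91, 5.62 and 8.47 CPM in KO LT-HSC and 48.5, 16.02, 18.1 and 20.7 in KO MPP2, a log2 fold change of 1.75 ± 0.44 (SE; adjusted p = 0.049) by edgeR. Its highest value is that of KO MPP2 1, the library with the large immunoglobulin share, and without that library the log2 fold change was 1.24 and not called. Of the 17 alternatives, Hist1h4m was called under 13, Hist1h4n under 12, Hist1h1b under 7, Hist1h3c under 5 and Hist1h4c under 3. Their highest edgeR or DESeq2 adjusted p was 0.226, 0.182, 0.265, 0.233 and 0.425 in the same order.

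In WT these 5 genes had log2 fold changes of 1.82 (Hist1h1b), 1.45 (Hist1h3c), 1.55 (Hist1h4m), 1.69 (Hist1h4n) and 0.85 (Hist1h4c) and were not called by edgeR, while DESeq2 called Hist1h1b, Hist1h4m and Hist1h4n. Whether the change differs between genotypes is the same contrast as the KO effect in MPP2 minus that in LT-HSC, and there 0 members were called by edgeR (given further below). The number called depends on single libraries. The WT call was lost without WT LT-HSC 1, WT LT-HSC 2 or WT MPP2 4. In KO the count was 1 without KO LT-HSC 1, 3 without KO LT-HSC 3, KO MPP2 2, KO MPP2 3 or KO MPP2 4, and 12 without the 3 libraries that stand apart, where 1.87% of all genes were called higher. Without these 3 libraries, 3 members were called in WT, against 1.45% of all genes. With the mouse as a block, 0 members were called in WT and 10 in KO, whether KO LT-HSC 3 was put with the mouse of number 3 or of number 4.

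By class, the median log2 fold change from LT-HSC to MPP2 in WT was 1.29 for H1, 1.90 for H2A, 1.53 for H2B, 1.11 for H3 and 0.85 for H4. In KO it was 1.44 for H1, 1.56 for H2A, 1.49 for H2B, 1.63 for H3 and 1.75 for H4. Over all members it was 1.32 in WT, with 44 of 55 higher, and 1.58 in KO, with 49 of 55 higher. Without the 3 libraries that stand apart, the KO median was 1.57, with 47 of 55 higher. Of the 14 H2A genes tested, 12 had a positive fold change in each genotype. The exceptions in WT included Hist1h2ac, at 51.02 and 25.9 CPM in WT LT-HSC and 34.3, 15.3, 5.62 and 7.84 in WT MPP2 (log2 fold change -1.29, not called). This gene was highest in number 1 of every group, and WT LT-HSC holds numbers 1 and 2 alone. The change therefore mixes population with number. From LT-HSC to MPP2 the level went from 51.02 to 34.3 CPM within number 1 and from 25.9 to 15.3 within number 2. Hist1h2ae, the H2A gene of highest level, was at 32.2 and 45.4 CPM in WT LT-HSC and 94.1, 136, 104 and 210.0 in WT MPP2, without overlap. Its log2 fold change was 1.81 ± 0.44 (SE; adjusted p = 0.0666) by edgeR, just short of the threshold.

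Genes divided by how far the model runs past the stem-loop differed in how many were higher. Of the 19 short models tested, 19 had a positive log2 fold change from LT-HSC to MPP2 in WT, from 1 to 2.77 with a median of 1.56, and 19 in KO, with a median of 1.77. Of the 19 long models, 10 had a positive one in WT, with a median of 0.07, and 14 in KO, with a median of 0.96. Of the 17 with no match, 15 were positive in WT (median 1.65) and 16 in KO (median 1.84). The count and median of the long models in WT moved with the fit, to 12 of 19 and 0.52 with the mouse as a block and to 9 of 19 and -0.11 with library totals alone. Short models were positive in 19 of 19 in both of these fits, with medians of 1.47 and 1.36. In KO without the 3 libraries that stand apart, 19 of 19 short models were positive (median 1.75) and 12 of 19 long models (median 0.815). Libraries did not overlap, with MPP2 higher, for 17 of 19 short and 5 of 19 long models in WT, and for 17 of 19 and 8 of 19 in KO.

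The summed level of the short models was 44.3 and 39.3 CPM in WT LT-HSC and 119.7, 113, 117 and 157 CPM in WT MPP2, a ratio of means of 3.03. In KO it was 30.2, 46.9 and 32.2 CPM in LT-HSC and 137, 129, 139 and 111 CPM in MPP2, a ratio of 3.54. The summed level of the long models was 347 and 297 CPM in WT LT-HSC and 431, 456, 374 and 593 CPM in WT MPP2, a ratio of 1.44. In KO it was 254.9, 270.1 and 242 CPM in LT-HSC and 377.3, 559.4, 380.4 and 458.6 CPM in MPP2, a ratio of 1.74. The long-model sums also do not overlap in either genotype. Short models therefore made up 9.02% ± 0.28 (SD) of the summed histone CPM in WT LT-HSC and 17.2% ± 0.78 in WT MPP2. In KO the shares were 9.09% ± 2.0 in LT-HSC and 18.2% ± 2.9 in MPP2. These shares do not overlap between LT-HSC and MPP2 in either genotype, and they are unaffected by the scaling of the libraries.

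**Figure D3:**
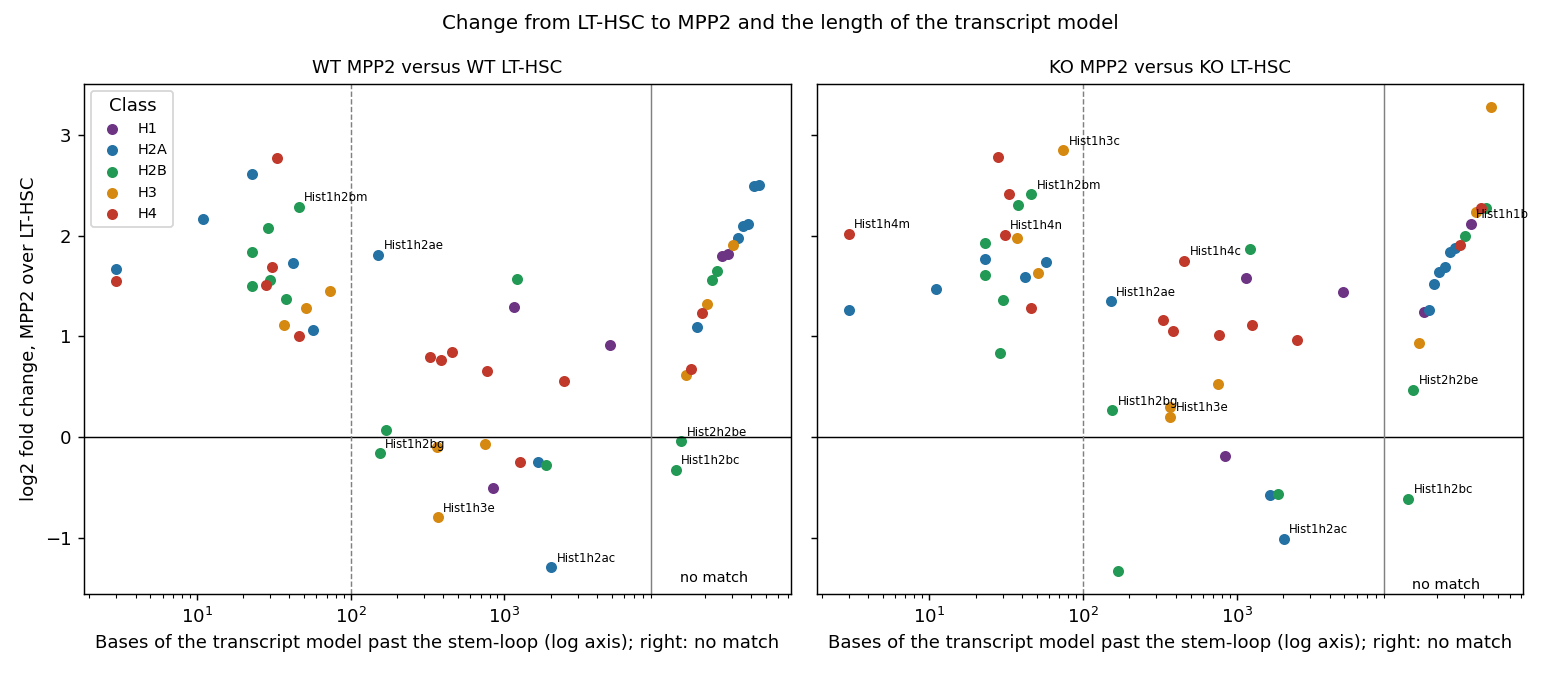
Log2 fold change from LT-HSC to MPP2 (WT and KO) for each tested histone gene against the bases its annotated model runs past the stem-loop (log axis, dashed line at 100 bases), with genes without a match at the right in order of change. All 19 short models lie above 0 in both genotypes, whereas long models spread from -1.29 to 1.81 in WT.

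Some histone transcripts were not higher in WT MPP2 than in WT LT-HSC, among them 2 of the most abundant. Hist1h2bc, the H2B gene of highest level, whose model holds no match, was at 71.5 and 57.8 CPM in WT LT-HSC and 37.00, 44.1, 80.3 and 45.5 in WT MPP2 (log2 fold change -0.32). Hist1h1c, the linker histone H1.2, was at 59.6 and 37.01 CPM in WT LT-HSC and 37.2, 20.1, 36.4 and 42.7 in WT MPP2 (log2 fold change -0.50). Its model runs 840 bases past the stem-loop. Hist1h3e, a less abundant H3 gene, was at 9.42 and 5.54 CPM in WT LT-HSC and 5.52, 3.27, 3.35 and 5.12 in WT MPP2 (log2 fold change -0.79). In KO, Hist1h2bc had a log2 fold change of -0.61, and the mean of Hist1h1c was 36.87 CPM in LT-HSC and 32.29 in MPP2. Hist1h3e did not fall there, at 5.03, 2.98 and 1.13 CPM in KO LT-HSC and 4.71, 2.67, 2.48 and 4.17 in KO MPP2. None of the 3 was called by edgeR or DESeq2.

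Divergent pairs, in which an H2A and an H2B gene start within 500 bases of each other on opposite strands, numbered 11, and 9 had both genes tested. In 6 of the 9, both genes were higher in MPP2 in each genotype, as for Hist1h2ag and Hist1h2bj, 270 bases apart, with log2 fold changes of 2.61 and 1.5 in WT and 1.77 and 1.93 in KO. The pair whose promoter is printed above had unlike values. Hist1h2bg was at 29.1 and 6.76 CPM in WT LT-HSC and 22.9, 15.2, 10.3 and 15.9 in WT MPP2, a log2 fold change of -0.16, against 1.81 for Hist1h2ae. The WT value for Hist1h2bg rests on unlike numbers. Its level went down from 29.1 to 22.9 CPM in number 1 and up from 6.76 to 15.2 in number 2. In KO the log2 fold changes were 0.27 for Hist1h2bg and 1.35 for Hist1h2ae. In Hist2h2ac and Hist2h2be, 239 bases apart in the Hist2 cluster, the H2A gene had 1.06 and the H2B gene -0.04 in WT, and 1.74 and 0.47 in KO. In Hist1h2ac and Hist1h2bc, 251 bases apart, both were lower in each genotype, at -1.29 and -0.32 in WT and -1.01 and -0.61 in KO. The level of Hist1h2ac also went with the library number, as given above. edgeR called none of the genes of the 11 pairs in either genotype. Among them DESeq2 called Hist1h2ae, Hist1h2ag, Hist1h2ah and Hist1h2ak in WT, all higher. In KO it called Hist1h2ae, Hist1h2ah, Hist1h2ak, Hist1h2bj, Hist1h2bp and Hist2h2ac, all higher. The difference within a pair was not tested.

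MPP3, the progenitors that give mainly granulocytes and monocytes, held less histone mRNA than MPP2 in WT. The WT MPP3 sums were 523, 536, 497 and 509.6 CPM, below every WT MPP2 library, with a ratio of means of 0.704 to WT MPP2. Against WT MPP2, 51 of 55 members had a negative log2 fold change with a median of -0.84, and 17 of 55 (30.9%) were lower in every library, against 5.33% of all genes tested. By class the 17 were 1 H1, 8 H2A, 4 H2B, 2 H3 and 2 H4 genes. edgeR called 0 members, against 1.2% of all genes called in either direction. At an unadjusted p under 0.05 there were 12 members (21.8%), against 13.5% of all genes. DESeq2 called 3 members, namely Hist1h2ah, Hist1h2ak and Hist1h2bm, all lower, against 4.36% of all genes. Hist1h2bm was at 7.13, 7.34, 11.4 and 5.21 CPM in WT MPP3, each library above both WT LT-HSC libraries and below all WT MPP2 libraries.

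Against WT LT-HSC, 40 of 55 members were higher in WT MPP3 with a median log2 fold change of 0.49. edgeR called 0 members, against 1.1% of all genes. At an unadjusted p under 0.05 there were 6 (10.9%), against 9.2% of all genes, and DESeq2 called 0 members against 3.01%. In 10 members (18.2%) all WT MPP3 libraries were above both WT LT-HSC libraries, against 12% of all genes, and 6 of the 10 were H4 genes. In 3 members, Hist1h2ac, Hist1h3e and Hist1h3d, they were all below, against 14.2% of all genes. Short models had a positive fold change in 18 of 19 genes (median 0.69), and long models in 9 of 19 (median -0.21).

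**Figure D4:**
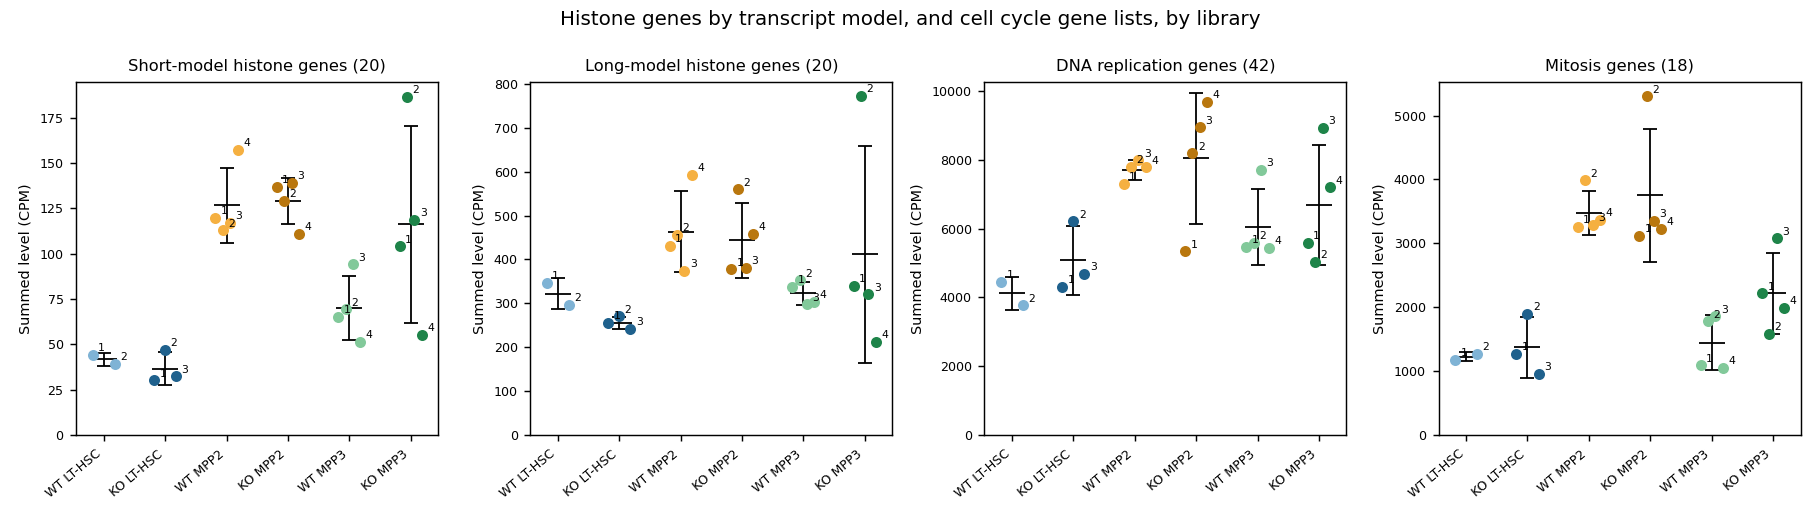
Summed CPM by library of the 20 short-model and the 20 long-model histone genes, and of the DNA replication and mitosis lists, with bars for the mean ± SD and the number of each library at its point. Within each genotype the mean short-model sum is highest in MPP2 and lowest in LT-HSC, where all 5 libraries lie between 30.2 and 46.9 CPM, while the highest single library is KO MPP3 2 at 186 CPM.

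In KO mice, most histone genes had a higher mean level in MPP3 than in LT-HSC. The median member was at a log2 fold change of 1.47 against 1.58 for MPP2. The sums over all members were 622, 1190, 603 and 394 CPM in KO MPP3 and 389, 411 and 400.3 CPM in KO LT-HSC. KO MPP3 4 thus lay within the LT-HSC range. Its H1, H2A and H3 sums (64.27, 62.85 and 14.61 CPM) were below those of every KO LT-HSC library. The MPP2 and MPP3 comparisons share the KO LT-HSC libraries. Of 55 members, 6 were called higher in KO MPP3 than in KO LT-HSC by edgeR and 0 lower, against 1.09% of all genes called higher, and DESeq2 called 22, against 6.53% of all genes in either direction. Hist1h2bm was at 12.6, 17.6, 12.9 and 7.46 CPM in KO MPP3, with a log2 fold change of 2.26 ± 0.37 (SE; adjusted p = 0.00153) by edgeR. Hist1h4h (chr13:23531050-23531519), an H4 gene, was at 3.99, 5.66 and 5.403 CPM in KO LT-HSC and 11.6, 29.5, 15.5 and 7.75 in KO MPP3, with 1.68 ± 0.38 (SE; adjusted p = 0.0177) by edgeR. Without KO MPP3 2 the log2 fold changes of these 2 genes were 2.06 (Hist1h2bm) and 1.21 (Hist1h4h), both still called. The groups do not overlap for either gene. The others were Hist1h4m (1.69, edgeR adjusted p = 0.0183), Hist1h4n (1.64, 0.0219), Hist1h1b (2.17, 0.031) and Hist1h3c (2.69, 0.0318). In 14 members (25.5%) all KO MPP3 libraries were above all KO LT-HSC libraries, against 5.28% of all genes, and 7 of these were H4 genes.

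The count of 6 was 5 without KO MPP3 2, 1 without KO LT-HSC 1, 2 without KO LT-HSC 3 or KO MPP3 3, 4 without KO LT-HSC 2 or KO MPP3 1, and 11 without KO MPP3 4. It was 2, Hist1h2bm and Hist1h4m, without the 3 libraries that stand apart, where 1.3% of all genes were called higher, and 9 with the mouse as a block, or 5 where KO LT-HSC 3 was put with number 4. Hist1h2bm was called under 16 of 17 alternatives, Hist1h4h under 10, Hist1h4m under 9, Hist1h1b under 8, Hist1h4n under 6 and Hist1h3c under 5. The median log2 fold change over the members was 0.99 without KO MPP3 2 and 0.79 without the 3 libraries. Between KO MPP3 and KO MPP2, edgeR called 0 members, against 0.886% of all genes, with 2 (3.64%) at an unadjusted p under 0.05 against 14.5% of all genes. DESeq2 called 1, Hist1h2ae, against 4.07% of all genes, and with the mouse as a block edgeR also called it. Hist1h2ae was at 70.6, 176, 102 and 148 CPM in KO MPP2 and 45.04, 48.1, 63.5 and 33.5 in KO MPP3, a log2 fold change of -1.39 ± 0.34 (SE; adjusted p = 0.0549) by edgeR, with all KO MPP3 libraries below all KO MPP2 libraries. The same held for 1 other member, Hist1h3i, which makes 2 of 55 (3.64%) against 3.59% of all genes. The median over members was -0.05, and -0.40 without KO MPP3 2. Without the 3 libraries that stand apart it was -0.52, with 10 of 55 higher in KO MPP3.

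The effect of Phf6 loss within a population was asked by comparing KO with WT. No histone gene passed the threshold in any of the 3 populations, by edgeR or by DESeq2. Few genes of any kind did: for LT-HSC, MPP2 and MPP3, edgeR called 0.00474%, 0.0142% and 0.00948% of all genes, and DESeq2 called 0.133%, 0.166% and 0.171%. At an unadjusted p under 0.05 by edgeR, LT-HSC had 2 members against 2.43% of all genes. MPP2 had 0 members against 6.72%, and MPP3 had 8 (14.5%) against 5.62%. In a simulation at these depths, edgeR called 59.7% of genes changed by 2 on the log2 scale in LT-HSC and 83.6% in MPP3. Of genes changed by 1 it called 4.48% and 11.9%. The changes were placed only in genes above a minimum mean level, drawn from all genes. Hist1h2bk, at a mean of 4.575 CPM, and all members of lower mean level lay below that minimum, so these shares do not stand for them. At each of these sizes 67 genes were changed at once, whereas edgeR called 1 gene in LT-HSC and 2 in MPP3 in the real data. The adjusted threshold is looser the more genes change, so the shares may be too high for the real comparisons. Phf6, at -3.96 in LT-HSC, had an edgeR adjusted p of 0.0371 and was called under 5 of 13 alternatives.

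In LT-HSC, histone levels in KO were mostly below WT, most of all in the H3 class. H3 sums were 29.97 and 25.2 CPM in WT and 17.9, 18.9 and 16.2 CPM in KO, without overlap and with a ratio of means of 0.64. In 9 members (16.4%) all 3 KO libraries were below both WT libraries, against 10.8% of all genes tested. Of these, 6 were among the 9 H3 genes tested (Hist1h3a, Hist1h3c, Hist1h3d, Hist1h3e, Hist1h3f and Hist1h3h) and 3 were H4 genes (Hist1h4a, Hist1h4h and Hist2h4). Another 3 members (5.45%) were above, against 7.53% of all genes. By class, the median log2 fold change was -0.39 for H1, 0.16 for H2A, -0.12 for H2B, -0.87 for H3 and -0.31 for H4. The summed levels of H2A and H2B lay the other way from these medians, with ratios of KO to WT means of 0.911 and 1.02.

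Hist1h3e, in WT at 9.42 and 5.54 CPM, was at 5.03, 2.98 and 1.13 in KO, a log2 fold change of -1.29 ± 0.62 (SE; adjusted p = 1) by edgeR. Hist2h4, an H4 gene of the Hist2 cluster, was at 11.1 and 11.1 CPM in WT and 3.77, 2.33 and 6.304 in KO, a log2 fold change of -1.42 ± 0.47 (SE; adjusted p = 1) by edgeR. Hist1h3h was at 0.422 and 0.612 CPM in WT and 0.108, 0.171 and 0.0333 in KO. Its levels are near that of a few reads, where 3 counts are 0.0985 to 0.194 CPM. With 2 WT libraries the sums rest on few values: the log2 ratio of the all-member sum of KO to WT, -0.21, lay between -0.33 and -0.09 when 1 library was left out. DNA replication genes went the other way in these libraries, with 37 of 42 of positive log2 fold change (median 0.33) and 0 called by edgeR. WT LT-HSC 2 is the library with the high neutrophil markers, and their part in these differences was not tested.

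In MPP2, the sums of KO and WT overlapped in every class, and the group means of all members differed by a ratio of 0.976. Of 55 members, 25 had a positive log2 fold change (median -0.02), and 9 with library totals alone as the scaling (median -0.16). Without the 3 libraries that stand apart, 23 had one (median -0.04). Only Hist1h2ah, an H2A gene, was lower in all 4 KO libraries than in all 4 WT libraries (1.82% of members, against 1.08% of all genes), with an edgeR log2 fold change of -0.85 (adjusted p = 0.838). By number, KO was above WT in 4 of 4 numbers for 3 members (5.45%) and for 7.09% of all genes.

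In MPP3, histone levels were higher in KO libraries than in WT libraries for most genes, and the size of the difference rested on KO MPP3 2. The sums were 523, 536, 497 and 509.6 CPM in WT and 622, 1190, 603 and 394 CPM in KO. The highest is KO MPP3 2 and the lowest KO MPP3 4. Of 55 members, 49 had a positive log2 fold change (median 0.68), with 45 when library totals alone were the scaling (median 0.45). Short models were positive in 19 of 19 genes (median 0.94), long models in 13 of 19 (median 0.44) and those with no match in 17 of 17 (median 0.77). By class the median was 0.76 for H1, 0.90 for H2A, 0.62 for H2B, 0.68 for H3 and 0.51 for H4. The summed H2A level lay the other way from its median, with a ratio of KO to WT means of 0.957.

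Without KO MPP3 2, the median was 0.30, with 42 of 55 positive, and 0.50 for short and -0.05 for long models. By class it was then -0.06 for H1 (2 of 5 positive), 0.28 for H2A, 0.32 for H2B, 0.29 for H3 and 0.30 for H4. Without all 3 libraries that stand apart, it was 0.09, with 32 of 55 positive, and by class -0.14 for H1, 0.08 for H2A, 0.19 for H2B, 0.51 for H3 and 0.07 for H4. Within numbers 1 and 2 the median was 0.94 and within numbers 3 and 4 it was 0.13. By number, KO was above WT in 4 of 4 numbers for 18 members (32.7%), against 5.5% of all genes, and 10 of the 18 had short models. The summed short models were 65.3, 69.3, 94.1 and 51.4 CPM in WT and 104, 186, 119 and 55.4 CPM in KO, and KO was the higher in each of the 4 numbers, by the least in number 4.

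The member ranked first by edgeR in MPP3 was Hist1h2ak, an H2A gene. It was at 1.304, 1.33, 1.16 and 0.687 CPM in WT and 3.13, 8.08, 3.95 and 1.31 in KO, a log2 fold change of 1.87 ± 0.56 (SE; adjusted p = 0.88) by edgeR, or 1.32 without KO MPP3 2. Hist1h1b was at 15.1, 16.2, 19.1 and 11.97 CPM in WT and 20.8, 75.6, 36.3 and 9.74 in KO, with an edgeR log2 fold change of 1.19 (adjusted p = 0.88). For this gene the fold change was 0.52 without KO MPP3 2, whose level is the highest, and 1.5 without KO MPP3 4, which lies below all WT libraries. Hist1h3c, with the stem-loop shown above, was the only member without overlap, at 1.06, 0.874, 3.06 and 0.4703 CPM in WT and 3.26, 4.44, 3.399 and 3.38 in KO (1.82% of members, against 1.07% of all genes). Its edgeR log2 fold change was 1.4 (adjusted p = 0.88), and 1.29 without KO MPP3 2.

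KO MPP3 2 had the highest level of the 8 MPP3 libraries in 38 of the 59 genes (64.4%), against 25.9% of all genes tested, and the highest of all 21 libraries in 25 (42.4%, against 16.8%). All 5 H1 genes were highest there. Hist1h4d, the H4 gene of highest level, was at 51.5, 325, 61.1 and 42.7 CPM in the 4 KO MPP3 libraries, and Hist1h1e, the linker histone H1.4, whose model overlaps that of Hist1h2be on the same strand, at 19.1, 103, 24.4 and 16.6. Both stand several times above the other KO MPP3 libraries in KO MPP3 2. Hist1h2ae and Hist1h2bc did not share this, at 48.1 and 53.4 CPM in KO MPP3 2. Among other lists, KO MPP3 2 was the highest of the 8 in 1 of 11 replacement histone genes, 2 of 18 mitosis genes and 6 of 42 DNA replication genes, and Slbp was lowest there, at 54.6 CPM against 232.7 to 323.9 in the other MPP3 libraries. The part of the high rRNA share and of the marker levels of this library in these values was not tested.

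**Figure D5:**
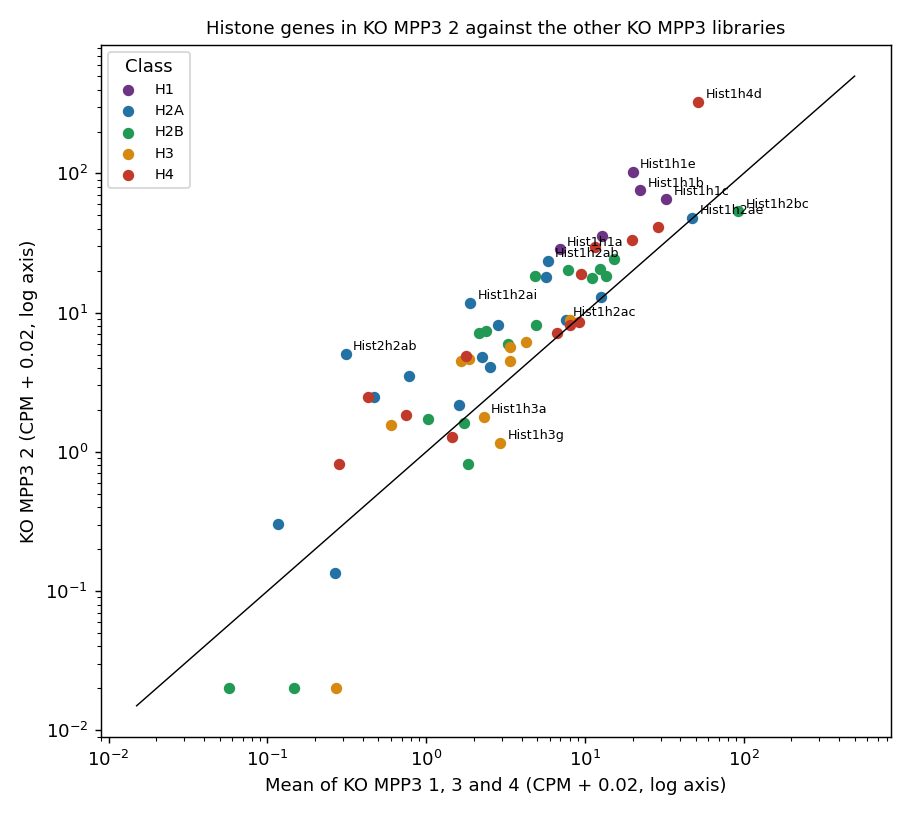
Level of each histone gene in KO MPP3 2 against its mean in the other 3 KO MPP3 libraries, both as CPM + 0.02 on log axes, coloured by class, with the line of equal level. Most points lie above the line, with Hist1h4d at 325 CPM and Hist1h1e at 103 CPM among the farthest.

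Whether the KO effect differed between populations was tested by interaction contrasts in the same fit. edgeR called 0 members in each of the 3 contrasts, as of all genes (0%), and DESeq2 called 0 members, against 0.114%, 0.118% and 0.0711% of all genes. At an unadjusted p under 0.05 by edgeR there were 2 members for MPP2 minus LT-HSC (against 3.6% of all genes), 6 for MPP3 minus LT-HSC (2.47%) and 2 for MPP3 minus MPP2 (4.47%). The median over members was 0.31, 0.91 and 0.75 in these contrasts, which share libraries. Without KO MPP3 2, the medians of the 2 contrasts that hold MPP3 were 0.55 (against LT-HSC) and 0.33 (against MPP2), and without the 3 libraries that stand apart 0.31 and 0.245.

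Genes that act around histone supply were examined from lists. Among 18 genes of histone transcription and 3′ processing, 15 were higher in WT MPP2 than in WT LT-HSC (median 0.31) and 0 were called by edgeR. Slbp, the stem-loop binding protein, was at 188 and 185 CPM in WT LT-HSC and 421, 269.7, 326 and 415 in WT MPP2, without overlap (log2 fold change 0.94, edgeR adjusted p = 0.332). Among 26 histone chaperones and assembly factors, 21 were higher (median 0.58) and 2 rose, namely Nasp, a carrier of H3 and H4, by 1.09 (edgeR adjusted p = 0.038), and Anp32e, a chaperone of H2A.Z, by 0.99 (0.0328). Among 11 replacement histones and histone variants, most of which are expressed also outside S phase, 10 were higher (median 0.87). H2afz, which encodes H2A.Z, rose by 1.39 (edgeR adjusted p = 0.0379). Of all genes, edgeR called 0.365% higher in this comparison.

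In KO, MPP2 against LT-HSC gave 1 chaperone, Asf1b, which hands H3 and H4 to the assembly machinery (1.33, edgeR adjusted p = 0.0169), and 1 replacement histone, H2afx, whose gene can also give a stem-loop mRNA (1.35, 0.0313). Of all genes, edgeR called 0.758% higher there. Asf1b fell from WT MPP2 to WT MPP3 (log2 fold change -1.54, edgeR adjusted p = 0.0071), as did H2afz (-1.08, 0.0259). H2afy, which encodes macroH2A1, was higher in MPP3 than in LT-HSC in WT (2.47, edgeR adjusted p = 0.0132) and in KO (2.78, 0.000635), and higher in KO MPP3 than in KO MPP2 (1.87, 0.0181). H1f0, the linker histone of resting and differentiated cells, was lower in KO MPP3 than in KO LT-HSC (-1.32, edgeR adjusted p = 0.0461).

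Cell cycle lists give the setting of these levels. All 42 DNA replication genes had a positive log2 fold change from LT-HSC to MPP2 in WT (median 0.93, 0 called by edgeR and 13 by DESeq2). In KO 41 of 42 had one (median 0.72, 2 called by edgeR). All 18 mitosis genes had one in WT (median 1.51, 2 called) and in KO (median 1.46, 8 called). The medians over all genes tested were 0.00 and 0.04. Of all genes, edgeR called 0.365% higher in WT and 0.758% in KO, and DESeq2 called 3.97% in WT in either direction. Summed DNA replication genes stood at 4462 and 3777 CPM in WT LT-HSC and 7305, 7807, 7986 and 7787 in WT MPP2. The WT MPP2 libraries were above both WT LT-HSC libraries. In KO the sums were 4317, 6218 and 4696 CPM in LT-HSC and 5345, 8190, 8947 and 9690 in MPP2. These overlap, as KO MPP2 1 lay below KO LT-HSC 2. Between WT MPP2 and WT MPP3, 5 mitosis genes were called lower in MPP3, against 1.2% of all genes called in either direction. The mitosis median was -1.28, beside -1.01 for the short-model and -0.37 for the long-model histone genes. In KO against WT no gene of these 5 lists was called by edgeR or DESeq2. In MPP3, 18 of 18 mitosis genes (median 0.64) and 36 of 42 DNA replication genes (median 0.21) had a positive log2 fold change. At an unadjusted p under 0.05 by edgeR there were 9 and 1, against 5.62% of all genes. These values include KO MPP3 2, which had the lowest KO MPP3 sum in both lists (1581 and 5030 CPM).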

How the data were processed

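RNA was sequenced from 21 libraries of sorted mouse bone marrow cells, and the libraries were prepared with Nextera XT per the labels' protocols. The authors deposited raw counts of reads per gene. Per the submitters' processing notes, STAR and the build mm10 were used. The way cDNA was primed, the counting program, its rule for reads that match several genes and its use of strand were not given in the sources used here. Histone mRNAs mostly lack a poly(A) tail, and whether the library method captures them fully was not tested. The table holds 54446 gene IDs, of which 54409 matched GENCODE M21 without the version, and 0 columns of other samples. Total counts ran from 18892723 to 31611366.

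Groups were taken from the labels. The tests used edgeR 4.0.16 in R 4.3.3 (robust quasi-likelihood, TMM factors, filterByExpr with a minimum count of 10) in 1 fit of all 21 libraries, with Benjamini-Hochberg adjustment over 21100 genes and a threshold of 0.05. The 12 comparisons were KO against WT in each population, the populations within each genotype, and the differences between KO effects. P values measure the spread between these libraries. Class sums are sums of CPM and were given no test. The fit was tested on simulated data with known changes. No 2 libraries held identical counts (0 pairs). Floors of 3 counts take in counting error alone, as PCR reads without molecular identifiers do not stand for independent molecules. Stem-loops were searched in the protein-coding models of each gene, taking the longest one with a match, promoters come from RefSeq (GRCm38.p6), and the tables were made with Python 3.11.15, pandas 2.3.3 and numpy 2.4.6.

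The histone genes, the other lists and the alternatives were chosen with earlier results of these data known. Alternatives were RLE size factors or library totals alone, no filter on low counts, DESeq2 1.42.0, only the groups compared, a block, leaving out each library in turn, numbers 1 and 2 or 3 and 4 alone, and, for sums, CPM per kb of exon and leaving out genes of identical coding sequence. Leaving out KO MPP2 1, KO MPP3 1 and KO MPP3 2, with their large immunoglobulin or rRNA shares, was added after seeing the data. By rule the text could name Phf6, the 3 members of highest mean CPM per class, up to 8 members per direction past the threshold, the 3 of smallest p in each KO to WT comparison, and 4 or fewer genes per other list and comparison. Other genes named, those of the divergent pairs and those without overlap among them, were chosen after their values were seen.

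Numbers were taken to mark mice, since titles of a genotype run in step, and 4 WT and KO pairs of mice are named in the design text. The titles themselves name no mouse. The pairing was checked on deviations from group means. For a WT and a KO library that share a number, these correlated at 0.327 to 0.381 in MPP2 (other numbers -0.426 to 0.418), 0.133 to 0.26 in MPP3 (-0.233 to 0.237) and 0.0645 to 0.0734 in LT-HSC (-0.0734 to 0.00277). Between MPP2 and MPP3 of the same number they correlated at 0.0877 to 0.218 in WT and 0.0647 to 0.565 in KO. Between LT-HSC and progenitors of the same number they ran from -0.0255 to 0.124 in WT and from -0.0605 to 0.229 in KO. KO LT-HSC 3, put with number 3 in the block, correlated at 0.1 with KO MPP2 3 and 0.0196 with KO MPP3 3, and at 0.227 with KO MPP2 4 and 0.166 with KO MPP3 4, whose title numbers its own follows. A block that puts it with number 4 was therefore added after seeing the data.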

Additional observations from a re-analysis of the deposited data

Results flagged for a closer look

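In groups of 4 libraries, 14 of 140 sets of values held 1 library far from the other 3, by a gap that took most of the group's range (Dixon's test). Chance alone gives about 1 in 20. Sums share genes with each other and with the single genes, so these are not separate events.

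In KO MPP3 2, the H4 sum was 483.7 CPM against 111.2 to 170.9 in the other KO MPP3 libraries. Hist1h4d was at 325.4 CPM against 42.66 to 61.07, and Hist1h1e at 103.0 CPM against 16.56 to 24.41. Hist1h3c was at 4.439 CPM against 3.258 to 3.399.

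In KO MPP2 1, the H3 sum was 39.83 CPM against 36.25 to 36.61 in the other KO MPP2 libraries. Hist1h2bg was at 25.76 CPM against 10.37 to 11.18, and Hist1h4c at 48.48 CPM against 16.02 to 20.71. The Hist1h2bg value is not particular to this library, as number 1 was at 17.89 to 29.13 CPM over the groups. In every group but KO MPP3, number 1 was the highest for this gene. In KO MPP2 2, the sum of all members was 838.8 CPM against 664.6 to 692.1, and the H4 sum 269.4 CPM against 188 to 201.1.

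In WT MPP2 4, the sum of all members was 888.6 CPM against 672.1 to 700.7 in the other WT MPP2 libraries, and the short-model sum 157.2 CPM against 112.8 to 119.7. In WT MPP3 4, the H1 sum was 107.2 CPM against 84.78 to 88.13, with Hist1h1c at 51.51 CPM against 27.09 to 30.44. Hist1h3h was lowest in that library, at 0.1809 CPM against 0.5636 to 0.5946.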

How the results depend on the processing

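In KO against WT, 0 members were called in LT-HSC, MPP2 and MPP3 under each alternative run, with the replicate number as a block also 0 in each. The mouse as a replicate block gave 0 calls for WT MPP2 against WT LT-HSC, 10 for KO MPP2 and 9 for KO MPP3 against KO LT-HSC, and 1 for KO MPP3 against KO MPP2, and changed no other count. With KO LT-HSC 3 put with number 4 in that block, these 3 KO counts were 10, 5 and 1. For WT MPP2 against WT LT-HSC (1 call), library totals alone, no filter on low counts, only the groups compared and numbers 1 and 2 gave 0, DESeq2 12, and leaving out the 3 libraries 3. For KO MPP2 against KO LT-HSC (6), library totals and no filter gave 3 each, DESeq2 22, only the groups compared and numbers 1 and 2 gave 1 each, and leaving out the 3 libraries 12. For KO MPP3 against KO LT-HSC (6), library totals gave 2, no filter 3, DESeq2 22, only the groups compared and numbers 3 and 4 gave 1 each, and numbers 1 and 2 and leaving out the 3 libraries 2 each. DESeq2 gave 3 for WT MPP3 against WT MPP2 (0), and DESeq2 and no filter gave 1 each for KO MPP3 against KO MPP2 (0). Leaving out 1 library at a time gave 0 to 1, 1 to 7, 1 to 11 and 0 to 1 calls for WT MPP2, KO MPP2 and KO MPP3 against LT-HSC and KO MPP3 against KO MPP2. The cause of these changes was not tested.

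Summed levels moved mainly when each gene was taken per kb of exon, which lowers the weight of long models. On the log2 scale, all-member ratios became 0.9876 (WT MPP2 to LT-HSC), 0.3348 (WT MPP3 to LT-HSC), -0.6528 (WT MPP3 to MPP2) and 1.104 (KO MPP2 to LT-HSC), and with library totals alone 0.4727, -0.3617 and 0.5454 for the first, the third and the last. Per kb, H1 became 1.11 for KO MPP2 to LT-HSC. H2A became 0.09911 for KO to WT LT-HSC, 1.541 for WT MPP2, 0.5244 for WT MPP3, 1.283 for KO MPP2 and 0.5512 for KO MPP3 to LT-HSC. H2B became 0.6305 for WT MPP2 and 0.6474 for KO MPP2 to LT-HSC and -0.3713 for WT MPP3 to MPP2. H3 became -0.4215 for KO to WT LT-HSC, 0.6947 for WT MPP2 and 1.243 for KO MPP2 to LT-HSC. With library totals alone, KO MPP2 to LT-HSC became 0.6509 for H1, -0.09168 for H2B and 0.7615 for H3, and KO to WT MPP2 -0.1249 for H3. Without 1 library, the all-member ratio ran from -0.329 to -0.0911 for KO to WT LT-HSC and from 0.04004 to 0.2775 for WT MPP3 to LT-HSC. Library totals alone moved the median of all genes by -0.307 (KO MPP2 against KO LT-HSC) to 0.144 (WT MPP3 against WT MPP2). One value for a named gene turned, Hist1h2ac in KO against WT MPP2, at 0.2384 within numbers 3 and 4.

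With 2 WT LT-HSC libraries, each LT-HSC comparison of WT rests on the pair. Genes of under 1 CPM stand on few reads. Copies with near-identical sequence, exon overlaps and unknown read assignment limit values of single genes, and the class sums also hold reads of long transcripts.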
